A study of Mus musculus with 11 samples.

Results

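The 10 genes described here build and load the MHC class I molecule: *H2-K1*, *H2-D1* and *B2m* for the molecule itself, *Tap1*, *Tap2* and *Tapbp* for transport and loading of peptide, *Psmb8*, *Psmb9* and *Psmb10* for the immunoproteasome, and *Nlrc5* for the control of their transcription. They were taken by name as a set of known function, with no threshold on a measured value, though with earlier results of these data known. All 10 were among the 19058 genes of the deposited table, and all 10 were among the 13937 genes tested, since each had far more than the 30 counts summed over the WT mice that a test required. The lowest count of a member in a WT mouse was 103, for *Nlrc5*, and in any mouse 9, also for *Nlrc5*.

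MHC class I molecules carry short peptides from inside the cell to its surface, where CD8+ T cells read them. Proteasomes cut the peptides, the TAP transporter moves them into the endoplasmic reticulum, and tapasin helps to place them in a groove formed by a heavy chain that is held by beta-2-microglobulin. Nearly all nucleated cells make these proteins at some level, leukocytes more than most, and interferons raise the transcription of the whole set, including the immunoproteasome subunits that take the place of the constitutive catalytic subunits. The male nonobese diabetic (NOD) mouse develops lymphocytic infiltrates in the lacrimal gland, the gland behind the tear film, and serves as a model of Sjögren syndrome.

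RNA from whole lacrimal glands of 11 male NOD mice was sequenced, with 1 library per mouse. The groups were 3 wild-type (WT) mice, 5 *Tlr7* knockout (KO) mice and 3 *Ifnar1* KO mice, and every group shared the NOD background and male sex. TLR7 is an endosomal sensor of single-stranded RNA, and IFNAR1 is a chain of the receptor for type I interferons. By the study's methods a further *Ifnar1* KO mouse, not analysed here, was taken out of that group because its expression and gland inflammation were like those of WT. The 3 *Ifnar1* KO mice are thus what remained after a choice that used the gland's state, which bears on every difference of this group from the others. The comparisons ask how the class I genes differed in glands lacking either protein. The *Tlr7* KO strain carries a deletion of 2 bases made by gene editing in NOD embryos, and the *Ifnar1* KO strain carries the em16 allele on both chromosomes. Both knockouts affect every cell of the mouse from the germ line on, so no cell type is singled out by them. The WT and *Tlr7* KO mice were 20 to 22 weeks old, and the age of the *Ifnar1* KO mice is not given in the sources used here. Whether WT and KO mice were littermates or housed together is not given either.

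The libraries held between 20512315 and 28814250 counts. Levels are given as CPM, the counts scaled to library size with TMM factors over all 11 mice, and 3 counts corresponded to 0.082 to 0.158 CPM. Of the markers of lacrimal acinar cells, Scgb2b20 stood at 65377 to 163403 CPM, Lcn11 at 3228 to 8738 CPM, Bhlha15 at 433 to 862 CPM, Aqp5 at 90.2 to 169 CPM and Prol1 at 1.74 to 29.2 CPM over the 11 mice, so all 5 were detected in every mouse. *Tlr7* transcript fell in *Tlr7* KO against WT by -1.62 on the log2 scale (adjusted p = 0.00364), and WT and *Tlr7* KO mice did not overlap. *Tlr7* stood at 0.765, 0.782, 0.949, 0.494 and 0.897 CPM in *Tlr7* KO mice 1 to 5 and at 0.612, 0.822 and 0.251 CPM in *Ifnar1* KO mice 1 to 3, so its level does not tell the knockouts apart. *Ifnar1* transcript fell in *Ifnar1* KO against WT by -0.61 (adjusted p = 0.0485) and also in *Tlr7* KO by -0.51 (adjusted p = 0.0220). In each group mouse 2 was at an end of the range across the class I genes. WT mouse 2 had the lowest WT level of 10 of 10 members, and *Tlr7* KO mouse 2 the highest *Tlr7* KO level of 10 of 10. *Ifnar1* KO mouse 2 had the highest *Ifnar1* KO level of 10 of 10, and mouse 3 of that group the lowest of 10 of 10. Counts of members under a p threshold are therefore also given without these mice, while the immunoproteasome ratios are given with all mice only.

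In the annotation of the mouse genome (GRCm38) 7 of the 10 genes lie in the MHC region of chromosome 17, where *Psmb9*, *Tap1*, *Psmb8* and *Tap2* follow each other. *Psmb9* (chr17:34181987-34187764, minus strand) and *Tap1* (chr17:34187553-34197225, plus strand) point away from each other and share 212 exonic bases at their starts in these Ensembl gene models. *Psmb8* lies at chr17:34197721-34201454 and *Tap2* at chr17:34203527-34216321. *H2-K1* is at chr17:33996017-34000347, *Tapbp* at chr17:33915899-33929292 and *H2-D1* at chr17:35262730-35267499. *B2m* lies on chromosome 2 (chr2:122147686-122153083), and *Psmb10* (chr8:105935735-105938444) and *Nlrc5* (chr8:94434356-94527272) lie on chromosome 8. The heavy chain genes are near copies of each other: 20.3% of the 31-base words in *H2-K1* transcripts and 27.6% of those in *H2-D1* transcripts occur in other genes too. The reference follows C57BL/6 alleles, and those of NOD mice may differ at some of these genes. The division of reads between *H2-K1*, *H2-D1* and related heavy chains is therefore uncertain. *B2m*, *Psmb8*, *Psmb9*, *Psmb10* and *Nlrc5* shared 0 such words with other genes. This count did not register exonic bases shared with genes on the opposite strand, such as the 212 of *Psmb9* and *Tap1*.

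The stretches just before the transcription start are shown for the heavy chains and *B2m*, since they are the genes whose levels carry the surface molecule, and because the interferon and kappa B sequences through which class I genes are known to respond can be read in them. RefSeq (GRCm38.p6) gave a start for 8 of the 10 members, and not for *Tap2* and *Nlrc5*. For *H2-K1* it gave 2 windows, of which the first listed is used here. The windows of *Tapbp* and *Psmb10*, not shown, held none of the motifs marked below. Each sequence is the 250 bases before the start, on the strand of the gene. Capitals mark GGGATTCCC (class I kappa B), AGTTTCACT (from the class I interferon response sequence), GAAANNGAA (core of an interferon-stimulated response element) and GGGACTTTC (from the kappa B sequence), each searched on both strands, and no marked matches overlap. The windows are chr17:34000348-34000597 (minus strand) for *H2-K1*, chr17:35262844-35263093 (plus strand) for *H2-D1* and chr2:122147437-122147686 (plus strand) for *B2m*.
H2-K1: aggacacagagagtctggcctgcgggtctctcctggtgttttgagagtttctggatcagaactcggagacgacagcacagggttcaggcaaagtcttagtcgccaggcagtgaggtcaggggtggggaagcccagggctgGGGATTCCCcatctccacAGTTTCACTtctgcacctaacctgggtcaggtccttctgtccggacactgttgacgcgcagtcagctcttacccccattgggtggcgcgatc
H2-D1: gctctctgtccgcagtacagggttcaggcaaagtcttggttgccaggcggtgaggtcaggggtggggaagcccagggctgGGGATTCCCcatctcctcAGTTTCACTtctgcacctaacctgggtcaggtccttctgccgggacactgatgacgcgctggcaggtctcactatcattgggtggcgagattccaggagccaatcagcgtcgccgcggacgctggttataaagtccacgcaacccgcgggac
B2m: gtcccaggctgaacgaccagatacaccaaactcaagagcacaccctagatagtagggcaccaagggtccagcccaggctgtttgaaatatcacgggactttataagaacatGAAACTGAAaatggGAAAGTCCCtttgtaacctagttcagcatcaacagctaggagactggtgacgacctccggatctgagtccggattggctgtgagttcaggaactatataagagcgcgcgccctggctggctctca
The *H2-K1* and *H2-D1* windows align over 190 bases, of which 87.4% are identical, and both hold the same kappa B and interferon response letters next to each other. These begin 110 and 92 bases before the start of *H2-K1*, and 170 and 152 bases before that of *H2-D1*. In *B2m* the interferon element begins 139 bases before the start and the kappa B letters, read on the opposite strand, 125 bases before it. Among 32851 windows of this length in the RefSeq table, 0.301% hold GGGATTCCC, 0.268% AGTTTCACT, 7.13% GAAANNGAA and 0.289% GGGACTTTC. These letters are known from class I genes, so their presence there is background and not a result of these data.

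By the RefSeq starts, which differ from the outermost Ensembl starts given above, *Tap1* and *Psmb9* are read outward from a common stretch of 225 bases at chr17:34187331-34187555, shown on the plus strand, with the *Psmb9* start to its left and the *Tap1* start to its right.
Tap1-Psmb9: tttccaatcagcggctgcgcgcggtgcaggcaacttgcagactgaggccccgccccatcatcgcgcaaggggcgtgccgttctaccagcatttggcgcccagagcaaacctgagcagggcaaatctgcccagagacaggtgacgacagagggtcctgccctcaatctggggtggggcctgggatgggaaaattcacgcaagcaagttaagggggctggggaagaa
None of the 4 motifs above was found in it, nor were the interferon-gamma activated sequence TTCNNNGAA and the cAMP response sequence TGACGTCA (in 1.55% of windows), both searched on both strands. The absence says only that these letters are not in this window. TTCNNNGAA was found 97 bases before the *Psmb8* start and is present in 7.02% of all windows. CCAAT was also searched and is not marked in the sequences above. It begins at base 4 of the stretch shared by *Tap1* and *Psmb9*. The *H2-K1*, *H2-D1*, *B2m* and *Tapbp* windows hold it too, as do 33.8% of all windows.

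*H2-K1* and *H2-D1* encode the classical heavy chains. *H2-K1* stood at 275, 112 and 293 CPM in WT mice 1 to 3, at 53.4, 133, 45.8, 57.0 and 60.8 CPM in *Tlr7* KO mice 1 to 5 and at 22.2, 58.9 and 10.8 CPM in *Ifnar1* KO mice 1 to 3. WT mice 1 and 3 were above every KO mouse, and WT mouse 2 was below *Tlr7* KO mouse 2. *H2-D1* stood at 626, 399 and 636 CPM in WT, 257, 407, 225, 249.9 and 285 CPM in *Tlr7* KO and 140.1, 235 and 121 CPM in *Ifnar1* KO mice. The same pair of mice, WT 2 and *Tlr7* KO 2, made the WT and *Tlr7* KO groups overlap here too, while all *Ifnar1* KO mice were below all WT mice. *B2m*, the light chain that every class I heavy chain needs, stood at 766, 359.6 and 689 CPM in WT, 236, 502, 224, 233 and 296 CPM in *Tlr7* KO and 101, 254 and 90.5 CPM in *Ifnar1* KO mice. *Tlr7* KO mouse 2 was clearly above WT mouse 2 for *B2m*, and the other 4 *Tlr7* KO mice were below all WT mice.

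**Figure D1:**
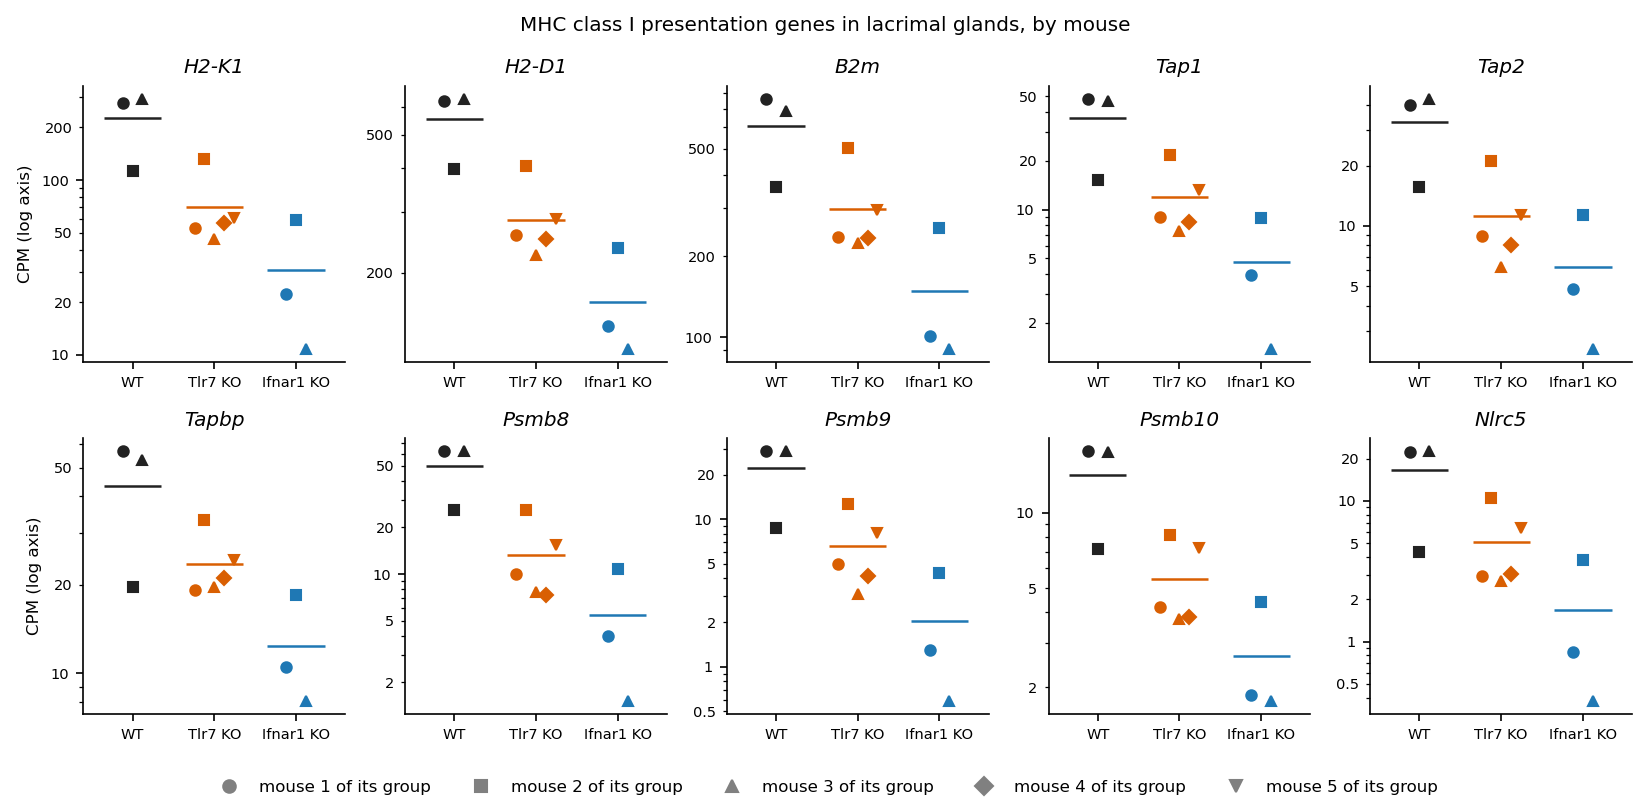
Level of each of the 10 genes in every mouse, in CPM on a log axis, with 3 WT, 5 *Tlr7* KO and 3 *Ifnar1* KO mice; symbols give the mouse number within its group and lines the group mean. In every panel WT mice 1 and 3 are the highest of the 11 mice, mouse 2 is the lowest of the WT group and the highest of each KO group, and *Ifnar1* KO mouse 3 is the lowest of all.

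*Tap1* and *Tap2* encode the paired chains of the peptide transporter, and *Tapbp* encodes tapasin, which ties the transporter to the empty class I molecule. *Tap1* stood at 48.3, 15.2 and 46.5 CPM in WT, 9.03, 21.7, 7.33, 8.40 and 13.1 CPM in *Tlr7* KO and 3.95, 8.89 and 1.38 CPM in *Ifnar1* KO mice. *Tap2* followed it closely, at 40.2, 15.6 and 43.2 CPM in WT, 8.91, 21.1, 6.26, 8.07 and 11.3 CPM in *Tlr7* KO and 4.87, 11.3 and 2.43 CPM in *Ifnar1* KO mice. For both genes 4 of the 5 *Tlr7* KO mice were below WT mouse 2, and all *Ifnar1* KO mice were below all WT mice. *Tapbp* stood at 57.0, 19.7 and 53.2 CPM in WT, 19.2, 33.2, 19.7, 21.1 and 24.3 CPM in *Tlr7* KO and 10.5, 18.5 and 8.04 CPM in *Ifnar1* KO mice. Its WT mouse 2 lay among the *Tlr7* KO mice, and its *Tlr7* KO and *Ifnar1* KO mice did not overlap. *Tapbp* shares 24.9% of its exonic bases with an antisense transcript, *Tap2* 14.1% and *Psmb8* 14.7%, and whether the counting used strand is not given in the sources used here.

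*Psmb8*, *Psmb9* and *Psmb10* encode the catalytic subunits that are built into the immunoproteasome. *Psmb8* stood at 62.1, 26.0 and 62.6 CPM in WT, 10.02, 25.8, 7.63, 7.29 and 15.4 CPM in *Tlr7* KO and 3.98, 10.7 and 1.51 CPM in *Ifnar1* KO mice. It was the member whose WT and *Tlr7* KO mice did not overlap, by the small margin between WT mouse 2 and *Tlr7* KO mouse 2. *Psmb9* stood at 29.1, 8.77 and 28.9 CPM in WT, 4.97, 12.7, 3.11, 4.12 and 8.08 CPM in *Tlr7* KO and 1.29, 4.30 and 0.586 CPM in *Ifnar1* KO mice. *Psmb10* stood at 17.7, 7.17 and 17.6 CPM in WT, 4.21, 8.13, 3.76, 3.83 and 7.23 CPM in *Tlr7* KO and 1.87, 4.41 and 1.76 CPM in *Ifnar1* KO mice. For *Psmb9* and *Psmb10* all *Ifnar1* KO mice were below all WT mice, and the *Tlr7* KO group reached above WT mouse 2. *Nlrc5*, the transactivator of class I genes, was the member with the fewest counts per base and stood at 22.5, 4.34 and 22.8 CPM in WT, 2.95, 10.5, 2.70, 3.01 and 6.39 CPM in *Tlr7* KO and 0.851, 3.81 and 0.377 CPM in *Ifnar1* KO mice. WT mouse 2 was below *Tlr7* KO mice 2 and 5 for *Nlrc5*, and *Ifnar1* KO mouse 2 was above *Tlr7* KO mice 1, 3 and 4.

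Set per length of the longest coding transcript, *B2m* was the most abundant member in WT glands at 703 ± 251 CPM per kb (SD, n = 3). *H2-D1* followed at 263 ± 63.8 and *H2-K1* at 140.0 ± 61.4 CPM per kb. *Psmb8* came next at 30.8 ± 12.9, before *Psmb9* at 16.4 ± 8.62 and *Tapbp* at 14.9 ± 7.09 CPM per kb. *Tap1* stood at 12.4 ± 6.31, *Psmb10* at 10.8 ± 4.62, *Tap2* at 9.59 ± 4.39 and *Nlrc5* at 2.18 ± 1.39 CPM per kb. From *Psmb9* to *Tap2* the SDs, which include the low level of every member in WT mouse 2, were larger than the gaps between neighbours. Within each WT mouse *Tap2* was the lowest of these 5 genes. *B2m* was also at the top in the knockouts, at 347 ± 137 CPM per kb in *Tlr7* KO (n = 5) and 173 ± 106 CPM per kb in *Ifnar1* KO mice (n = 3), and *Nlrc5* at the bottom, at 0.673 ± 0.444 and 0.222 ± 0.245 CPM per kb.

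Glands of *Tlr7* KO mice had less RNA of nearly the whole class I set than glands of WT mice. Of the 10 members, 9 fell at an adjusted p under 0.05 in edgeR's quasi-likelihood test and 0 rose. Of all genes tested, 17.4% were called lower in *Tlr7* KO and 32.7% in either direction. The median log2 fold change of the members was -1.60, and that of all genes tested was -0.04. The falls were between 1.95-fold (*H2-D1*) and 3.82-fold (*Psmb8*). In whole glands, fewer cells of a type and less RNA per cell cannot be told apart.

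*Psmb8*, *Psmb9* and *Nlrc5* were at the large end of the range. *Psmb8* changed by -1.93 ± 0.430 (SE, adjusted p = 0.00963) on the log2 scale in *Tlr7* KO against WT. *Psmb9* changed by -1.77 ± 0.479 (SE, adjusted p = 0.0208) and *Psmb10* by -1.40 ± 0.346 (SE, adjusted p = 0.0146). *Nlrc5* changed by -1.72 ± 0.570 (SE, adjusted p = 0.0446), with the widest error of the set. Among the heavy chains, *H2-K1* changed by -1.70 ± 0.389 (SE, adjusted p = 0.0108) and *H2-D1* by -0.96 ± 0.215 (SE, adjusted p = 0.00978). *B2m* fell about as far as *H2-D1*, with -1.02 ± 0.314 (SE, adjusted p = 0.0337). The transporter genes *Tap1* and *Tap2* changed by -1.63 ± 0.421 (SE, adjusted p = 0.0173) and -1.58 ± 0.409 (SE, adjusted p = 0.0176). *Tapbp* gave -0.89 ± 0.312 (SE, adjusted p = 0.0539) and was the member that did not pass the test. DESeq2 called all 10 members lower, and 2456 of the 13937 genes tested.

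The WT and *Tlr7* KO mice did not overlap for 1 of the 10 members, *Psmb8*, against 14.2% of all genes tested lower without overlap. WT mouse 2 was below *Tlr7* KO mouse 2 for 9 of the 10 members, and above the other 4 *Tlr7* KO mice for 7. Without WT mouse 1, and likewise without WT mouse 3, 3 members were called (*H2-K1*, *H2-D1* and *Psmb8*), and without WT mouse 2 or without *Tlr7* KO mouse 2 all 10 were. Of all genes, 19.6% and 18.7% were called without WT mouse 1 or 3, 47.8% without WT mouse 2 and 30.8% without *Tlr7* KO mouse 2. Calls of members were also lost in fits without another *Tlr7* KO mouse (1, 3, 4 or 5), where 23.6% to 28% of all genes were called. Over all 8 fits that leave out a mouse, 21 results of single members lost their call, 57 stayed the same and 2 gained one.

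Glands of *Ifnar1* KO mice had less RNA of every member than glands of WT mice. The group is the one left after the WT-like mouse had been taken out, and the effect of that choice on these values was not tested. All 10 members fell at an adjusted p under 0.05, against 12.4% of all genes tested called lower and 19.2% called in either direction. The 3 *Ifnar1* KO mice were below the 3 WT mice for all 10 members, against 21.1% of all genes tested. The median log2 fold change of the members was -2.68, and that of all genes was -0.02. The falls were between 3.41-fold (*H2-D1*) and 11-fold (*Psmb9*).

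*Psmb9* changed by -3.46 ± 0.721 (SE, adjusted p = 0.0251) on the log2 scale in *Ifnar1* KO against WT. *Nlrc5* followed with -3.33 ± 0.875 (SE, adjusted p = 0.0396) and *Psmb8* with -3.25 ± 0.662 (SE, adjusted p = 0.0247). Counts were low in *Ifnar1* KO mouse 3, where *Nlrc5* had 9, *Psmb9* had 14, *Tap1* had 33 and *Psmb8* had 36 counts. *Tap1* changed by -2.98 ± 0.669 (SE, adjusted p = 0.0276) and *H2-K1* by -2.92 ± 0.650 (SE, adjusted p = 0.0271). *Tap2* and *Psmb10* stood close together, with -2.44 ± 0.581 (SE, adjusted p = 0.0314) and -2.43 ± 0.469 (SE, adjusted p = 0.0234). The smallest falls were those of *B2m* with -2.06 ± 0.470 (SE, adjusted p = 0.0286), *Tapbp* with -1.84 ± 0.450 (SE, adjusted p = 0.0336) and *H2-D1* with -1.77 ± 0.312 (SE, adjusted p = 0.0225). The values in *Tlr7* KO above rest on the same 3 WT mice.

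Leaving out a mouse changed these calls. Without WT mouse 1, WT mouse 3, *Ifnar1* KO mouse 1 or *Ifnar1* KO mouse 3, edgeR called 0 of the 10 members and between 0 and 121 of all genes, with an unadjusted p under 0.05 for 10 of 10 members in each of these fits. Without WT mouse 2 or without *Ifnar1* KO mouse 2 all 10 were called, and 33.5% and 11.4% of all genes.

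**Figure D2:**
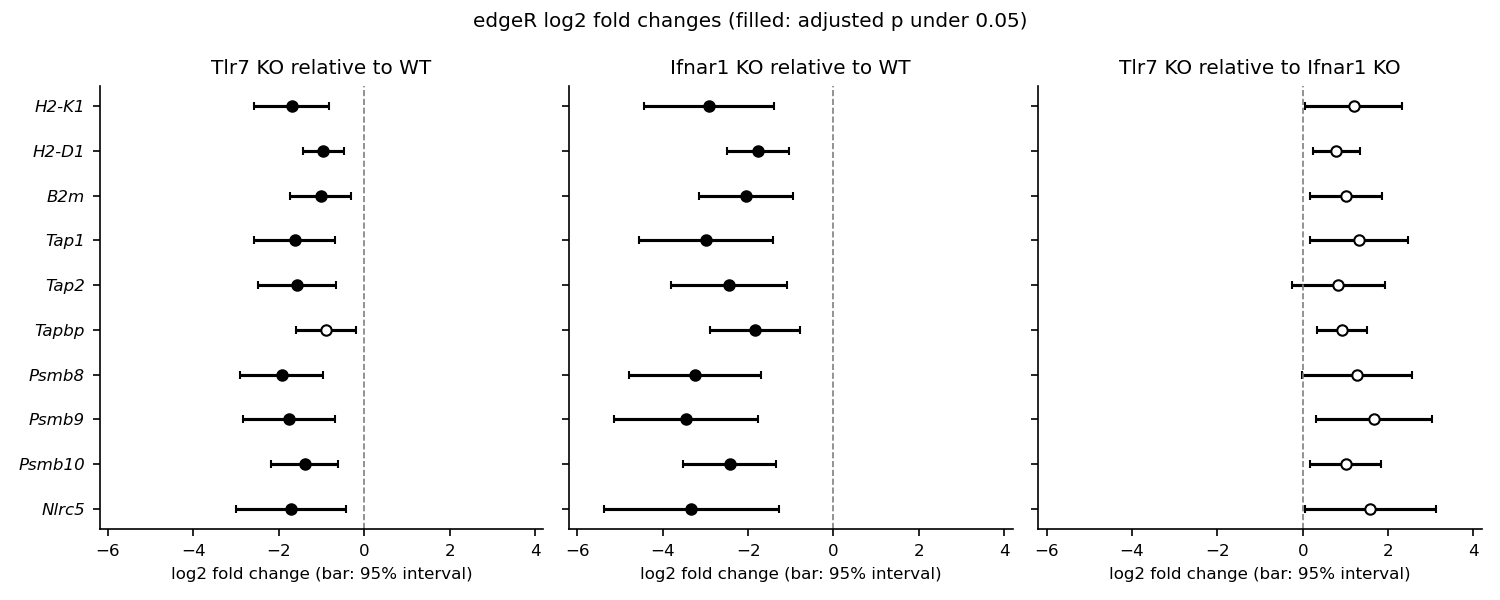
Log2 fold changes of the 10 genes in 3 comparisons by edgeR; bars give 95% intervals and filled circles an adjusted p under 0.05. All 10 values lie below 0 in both KO groups against WT, 9 and 10 of them filled, and above 0 in *Tlr7* KO relative to *Ifnar1* KO, with 0 filled.

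The knockouts were compared directly, and here the levels of all 10 members were higher in *Tlr7* KO than in *Ifnar1* KO mice but 0 of 10 passed the test. Of all genes tested, 1.79% were called. At an unadjusted p under 0.05 were 8 of the 10 members, against 16.3% of all genes. Without *Ifnar1* KO mouse 1 or 3 this number of members was 2, and without *Tlr7* KO mouse 2 or 5 it was 5. In these fits 1787, 1914, 1920 and 1956 of the 13937 genes were under 0.05, in the same order. DESeq2 called 1 member, *Tapbp*, and 4.14% of all genes. The median log2 difference of the members was 1.10, and that of all genes was 0.00.

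*Psmb9* was higher in *Tlr7* KO by 1.66 on the log2 scale, with a 95% interval of 0.31 to 3.02 (adjusted p = 0.217). *Nlrc5* was higher by 1.59 with an interval of 0.06 to 3.12 (adjusted p = 0.293). For *Tap1* the difference was 1.32 (0.17 to 2.47), for *Psmb8* 1.28 (-0.01 to 2.57) and for *H2-K1* 1.19 (0.05 to 2.33). These intervals reach from near 0 to more than 2 log2 units, so the size of the difference was poorly resolved. *Psmb10* and *B2m* both gave 1.01, with intervals of 0.18 to 1.85 and 0.16 to 1.85. *Tapbp* gave 0.93 (0.34 to 1.51, adjusted p = 0.123), and it was the member for which the groups did not overlap, against 5.47% of all genes higher without overlap. *H2-D1* gave 0.79 (0.24 to 1.33) and *Tap2* 0.84 (-0.25 to 1.92). The intervals of *Tap2* and *Psmb8* included 0. *Ifnar1* KO mouse 2 was above the lowest *Tlr7* KO mouse for 9 of the 10 members. Without it, 8 members and 6.29% of all genes were called, and the median of the members was 1.86. That median was 0.82 without *Tlr7* KO mouse 2, 0.91 without *Ifnar1* KO mouse 1 and 0.79 without *Ifnar1* KO mouse 3. In these 3 fits 1.03%, 0.653% and 0.66% of all genes were called.

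An immunoproteasome forms where *Psmb8*, *Psmb9* and *Psmb10* products are built in place of those of *Psmb5*, *Psmb6* and *Psmb7*. The log2 ratio of the counts of each such pair within a library does not depend on how libraries are scaled, though it compares genes of unequal length and is read here only between mice. For *Psmb8* to *Psmb5* it was 1.72, 0.10 and 1.69 in WT mice 1 to 3, -1.32, 0.14, -1.60, -1.74 and -0.86 in *Tlr7* KO mice 1 to 5 and -2.52, -1.07 and -4.12 in *Ifnar1* KO mice 1 to 3. WT mouse 2 and *Tlr7* KO mouse 2 had nearly the same ratio, and the other mice of the groups were well apart. For *Psmb9* to *Psmb6* it was -0.41, -2.41 and -0.30 in WT, -3.04, -1.59, -3.75, -3.21 and -2.47 in *Tlr7* KO and -4.30, -3.25 and -6.22 in *Ifnar1* KO mice. For *Psmb10* to *Psmb7* it was -0.86, -2.42 and -0.89 in WT, -3.11, -2.25, -3.38, -3.23 and -2.59 in *Tlr7* KO and -3.85, -3.11 and -4.54 in *Ifnar1* KO mice. In all 3 pairs the *Ifnar1* KO mice were below the WT mice without overlap.

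In *Tlr7* KO against WT the mean log2 ratio was lower by 2.25 for *Psmb8* to *Psmb5*, from 1.17 ± 0.926 (SD, n = 3) to -1.08 ± 0.757 (n = 5). It was lower by 1.78 for *Psmb9* to *Psmb6* and by 1.52 for *Psmb10* to *Psmb7*. A two-sided exact permutation test gave p = 0.0714 for each of these 3 pairs, where 3 mice against 5 can give no less than 0.0357. In *Ifnar1* KO against WT the ratios were lower by 3.75, 3.56 and 2.44 in the same order, with an exact p = 0.1 each, the smallest that 3 mice against 3 allow. Between the knockouts they were higher in *Tlr7* KO by 1.50 (exact p = 0.143), 1.78 (exact p = 0.0714) and 0.92 (exact p = 0.107). Adjusted over the 9 tests, the p was 0.121 or 0.143, and with these group sizes no ratio could have passed 0.05. The counts of *Psmb5*, *Psmb6* and *Psmb7* themselves gave log2 fold changes of 0.25, 0.02 and 0.17 in *Tlr7* KO and of 0.19, -0.12 and 0.03 in *Ifnar1* KO, all not called.

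**Figure D3:**
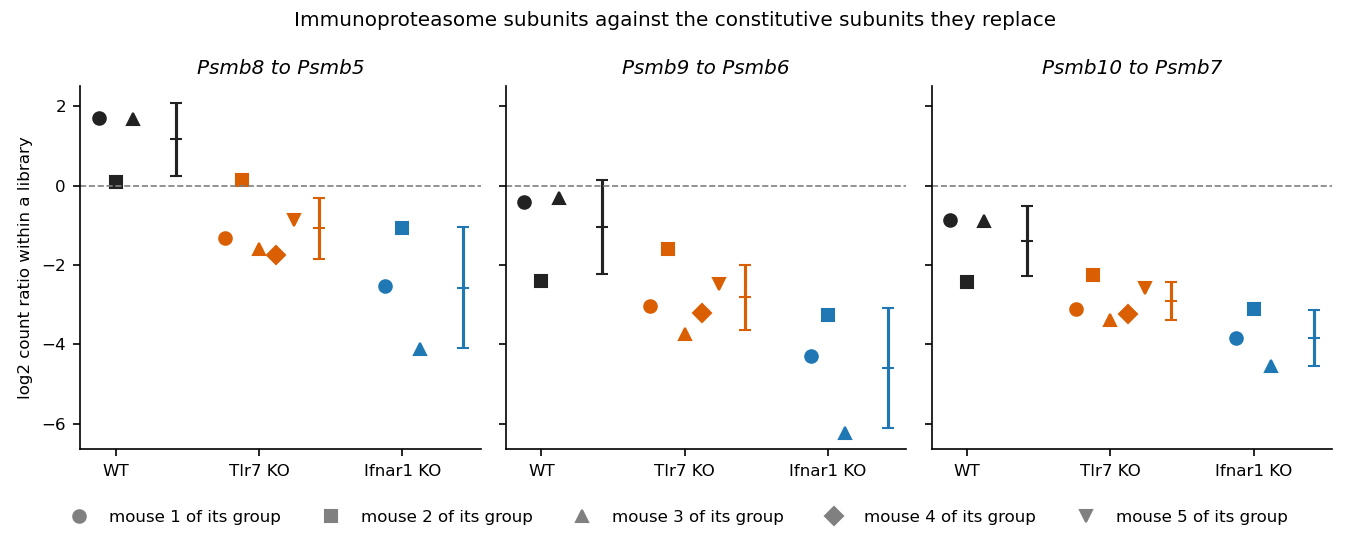
Log2 of the count ratio of each immunoproteasome subunit to the constitutive subunit whose place it takes, by mouse, with the group mean and SD at the right of each group; symbols give the mouse number within its group and the dashed line equal counts. Mean ratios are highest in WT and lowest in *Ifnar1* KO in all 3 pairs, and WT mouse 2 lies near *Tlr7* KO mouse 2 for *Psmb8* to *Psmb5*.

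The other genes of the pathway were followed through lists set by function. Their counts stand beside 17.4% of all genes called lower and 15.3% higher in *Tlr7* KO, and 12.4% lower and 6.76% higher in *Ifnar1* KO. In *Ifnar1* KO, 0 genes of the heavy chain, class II, activator, transcription factor, interferon receptor and leukocyte lists were called lower without WT mouse 1 or 3 or *Ifnar1* KO mouse 1 or 3. Of 19 other class I and class I-like heavy chain genes 15 were tested, and 12 fell in *Tlr7* KO and 10 in *Ifnar1* KO, with medians of -1.45 and -2.58. Without WT mouse 1 or 3, 7 fell in *Tlr7* KO. The most abundant of them were *H2-Q4* (-1.55 in *Tlr7* KO and -2.62 in *Ifnar1* KO), *H2-Q6* (-2.16 and -3.27), *H2-T10* (-1.24 and -2.38) and *H2-Q7* (-2.49 and -3.98), called in both comparisons. *H2-T24*, singled out after its values were seen, gave -0.00 and -0.11. Of the MHC class II genes, which present peptides from outside the cell and include their own transactivator *Ciita*, 7 of 7 fell in both knockouts, with medians of -2.04 and -2.81, and in *Tlr7* KO 7 were called with any mouse left out. Among the 5 genes for proteasome activators and assembly, the subunits of the interferon-induced PA28 cap, *Psme1* (-1.28 in *Tlr7* KO and -1.80 in *Ifnar1* KO) and *Psme2* (-0.94 and -1.55), fell in both, and *Psme4*, which encodes another cap, rose in both (0.58 and 0.57). *Psme2* was not called in *Tlr7* KO without WT mouse 1, WT mouse 3 or *Tlr7* KO mouse 1 (adjusted p up to 0.0920). With scaling by library size alone *Psme4* was not called (0.10 and 0.29), and in *Ifnar1* KO it was called in 1 of the 6 fits that leave out a mouse, that without WT mouse 2.

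The constitutive proteasome genes had median log2 fold changes near 0. Of 14 genes for constitutive 20S subunits edgeR and DESeq2 each called 0 in either knockout, and at an unadjusted p under 0.05 were 2 in *Tlr7* KO and 0 in *Ifnar1* KO, with medians of 0.05 and -0.01 and single values between -0.28 and 0.43. Without WT mouse 2, edgeR called 3 of them higher in *Tlr7* KO and 1 in *Ifnar1* KO, without *Tlr7* KO mouse 5 it called 1 higher, and with scaling by library size alone 1 lower in *Tlr7* KO. Of 6 further loading and trimming genes 3 rose in *Tlr7* KO, where 15.3% of all genes were called higher, namely the chaperone genes *Calr* (0.65), *Pdia3* (0.50) and *Uggt1* (0.48), and *Uggt1* also in *Ifnar1* KO (0.45, adjusted p = 0.0437), where 6.76% were. The call of *Uggt1* in *Ifnar1* KO held in 1 of the 6 fits that leave out a mouse, that without WT mouse 2. With scaling by library size alone, which moved the median of all genes to -0.54 in *Tlr7* KO and -0.31 in *Ifnar1* KO, none of these genes was called higher, and the value of *Pdia3* in *Tlr7* KO changed sign to near 0. The trimming peptidase gene *Erap1* gave -0.59 in *Tlr7* KO and -1.10 in *Ifnar1* KO and was not called. Of the 6 loading and trimming genes, DESeq2 called 4 higher and 1 lower in *Tlr7* KO. Scaling by library size alone called 0 higher and 2 lower there. CD8, the receptor that binds class I on T cells, was measured through *Cd8a* (-1.55 and -2.38) and *Cd8b1* (-1.35 and -2.71), not called by edgeR. DESeq2 called 1 of the pair in *Tlr7* KO and 2 in *Ifnar1* KO, and edgeR called 2 in *Tlr7* KO without *Tlr7* KO mouse 2 and 2 in *Ifnar1* KO without WT mouse 2.

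**Figure D4:**
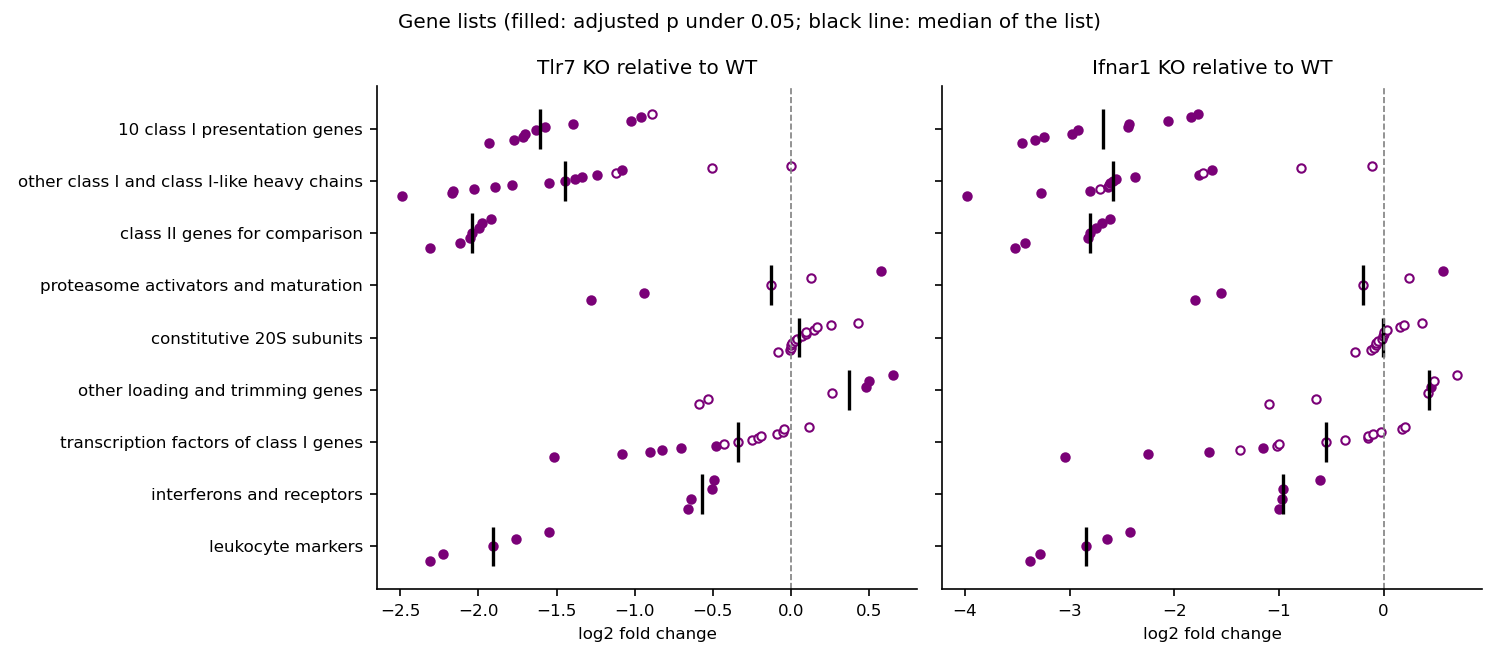
Log2 fold change of each tested gene in 9 lists, in *Tlr7* KO and in *Ifnar1* KO relative to WT; filled circles have an adjusted p under 0.05 and black lines mark the median of a list. The medians of the class I, class II and leukocyte lists lie well below 0, with 1 other heavy chain gene, *H2-T24*, near 0. The 14 constitutive 20S subunits lie around 0, and the loading and activator lists hold genes on both sides of 0. The transcription factor list lies mostly below 0, with medians of -0.34 in *Tlr7* KO and -0.555 in *Ifnar1* KO. The 4 interferon receptor genes lie below 0 in both.

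Among 15 transcription factors known to act on class I genes, 6 fell in *Tlr7* KO and 4 in *Ifnar1* KO, against 17.4% and 12.4% of all genes. In *Tlr7* KO it was 2 without WT mouse 1 or 3 or *Tlr7* KO mouse 1 or 3, 3 without *Tlr7* KO mouse 4, and 10 without WT mouse 2, and in *Ifnar1* KO 9 without WT mouse 2. The interferon-induced factor *Irf1* (-1.08 in *Tlr7* KO and -2.25 in *Ifnar1* KO) fell in both, and so did *Irf2* (-0.83 and -1.15). *Irf1* was not called in *Tlr7* KO without WT mouse 1 or 3 or *Tlr7* KO mouse 1, 3 or 4 (adjusted p up to 0.147), nor in *Ifnar1* KO without WT mouse 1 or 3 or *Ifnar1* KO mouse 1 or 3 (adjusted p up to 0.105). *Irf8* (-0.90), *Rfx5* (-0.705) and *Creb1* (-0.48) fell in *Tlr7* KO. In *Ifnar1* KO, *Irf8* gave -1.02 (adjusted p = 0.0517) and *Rfx5* -0.997 (adjusted p = 0.0521), just short of a call. *Creb1* gave -0.15 there (adjusted p = 0.370). *Irf9* fell in *Ifnar1* KO (-1.67). All of these, with *Stat2*, are named after their values were seen. In the direct comparison of the knockouts 2 of the 15 were called, both higher in *Tlr7* KO as were 0.926% of all genes, and both belong to the ISGF3 complex that carries the type I interferon signal. *Irf9* stood at 21.7, 10.4 and 18.3 CPM in WT, 13.4, 18.0, 14.7, 12.5 and 15.4 CPM in *Tlr7* KO and 4.59, 8.03 and 3.56 CPM in *Ifnar1* KO mice. It was higher in *Tlr7* KO than in *Ifnar1* KO by 1.45 on the log2 scale (adjusted p = 0.0169), and the knockout groups did not overlap. *Stat2* stood at 48.8, 16.1 and 37.5 CPM in WT, 27.3, 49.4, 31.1, 26.4 and 31.8 CPM in *Tlr7* KO and 12.2, 18.6 and 9.33 CPM in *Ifnar1* KO mice, and was higher in *Tlr7* KO by 1.31 (adjusted p = 0.0342). Against WT, *Irf9* gave -0.19 and *Stat2* -0.05 in *Tlr7* KO, neither called. Over 16 alternative fits of this comparison *Irf9* ran from -0.78 to 0.03 and was called lower in 1. *Stat2* ran from -0.65 to 0.30 and was called in 0. *Irf9* was not called without *Tlr7* KO mouse 5 (adjusted p = 0.0502) or *Ifnar1* KO mouse 1 (adjusted p = 0.0798), and *Stat2* was called in 2 of the 8 fits that leave out a mouse, those without *Tlr7* KO mouse 2 or *Ifnar1* KO mouse 2, with an adjusted p of up to 0.137 in the others.

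Of the interferons and their receptors 4 genes were tested. *Ifngr1*, *Ifngr2*, *Ifnar1* and *Ifnar2* fell in both knockouts, where 17.4% and 12.4% of all genes did, by between -0.66 and -0.50 in *Tlr7* KO and between -1.0 and -0.61 in *Ifnar1* KO on the log2 scale. Without WT mouse 1 or WT mouse 3, 0 of the 4 were called in either knockout, and without *Tlr7* KO mouse 3 or 4 it was 2 in *Tlr7* KO. In *Ifnar1* KO 0 were called without *Ifnar1* KO mouse 1 or 3 or with scaling by library size alone, and 2 without *Ifnar1* KO mouse 2.

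Leukocyte RNA moved with the class I genes. The 5 leukocyte markers (*Ptprc*, *Coro1a*, *Laptm5*, *Cd53* and *Cd52*) fell in both knockouts, 5 of 5 in each, against 17.4% and 12.4% of all genes, with medians of -1.90 in *Tlr7* KO and -2.84 in *Ifnar1* KO. In *Tlr7* KO 5 were called with any mouse left out, and in *Ifnar1* KO 0 without WT mouse 1 or 3 or *Ifnar1* KO mouse 1 or 3. Single markers lay between -2.31 (*Ptprc*) and -1.55 (*Laptm5*) in *Tlr7* KO and between -3.38 and -2.43 in *Ifnar1* KO, beside members between -1.93 and -0.89 and between -3.46 and -1.77. Their summed level ran from 98.5 to 311 CPM in WT, with WT mouse 2 the lowest. It ran from 37.0 to 104 CPM in *Tlr7* KO and from 13.9 to 52.0 CPM in *Ifnar1* KO, with mouse 2 the highest in each. The summed level of 6 T cell markers ran from 17.2 to 57.5 CPM in WT, from 4.29 to 21.3 CPM in *Tlr7* KO and from 1.13 to 10.1 CPM in *Ifnar1* KO. That of 5 B cell markers ran from 69.6 to 242 CPM, from 5.20 to 42.4 CPM and from 2.30 to 17.8 CPM, and that of 4 NK cell markers from 3.12 to 8.63 CPM, from 1.34 to 2.85 CPM and from 0.0419 to 0.859 CPM in the same order. No marker of these lists was at 0 in every mouse of a group. Markers of other cells moved too. Of 4 myoepithelial markers 4 fell in *Tlr7* KO and 1 in *Ifnar1* KO (medians -0.78 and -0.57), with a summed level of 70.1 to 89.0 CPM in WT, 39.3 to 51.8 CPM in *Tlr7* KO and 55.0 to 57.3 CPM in *Ifnar1* KO. Of 6 myeloid markers 3 and 2 fell (medians -0.44 and -1.16), against 17.4% and 12.4% of all genes. Of 4 plasma cell markers 2 and 1 fell, and 1 rose in each knockout. Of 4 endothelial markers 2 fell in each knockout, and 1 rose in *Tlr7* KO. Of 4 fibroblast markers 2 fell in each knockout. Of 5 markers of duct and other epithelium 1 fell in each knockout, and 1 rose in *Tlr7* KO. Of 5 acinar markers 3 and 1 rose (medians 0.35 and 0.45), against 15.3% and 6.76% of all genes, while Prol1 gave -1.21 and -1.92, not called. Scaling by library size alone took the genes called higher, of all tested, from 2135 to 123 in *Tlr7* KO and from 942 to 51 in *Ifnar1* KO. Without *Ifnar1* KO mouse 1 or 3, 0 of all genes were called in *Ifnar1* KO against WT. The part of leukocyte or gland cell content in the class I differences was not tested.

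Over the 11 mice the members followed each other closely. Pearson's r of the log2 CPM of a member with the mean of the other 9 was between 0.974 (*Tapbp*) and 0.996 (*Psmb9*), over mice that fall into groups. Among 5041 genes outside the set that averaged 10 CPM or more, the 5 most like the mean of the members included *H2-Q4* (r = 0.997), *Ly6e* (0.996), *Ifngr2* (0.991) and *Irf1* (0.991). The 5 most like *Nlrc5* alone included *Irf1* (0.995), *Ifngr2* (0.992), *Irgm1* (0.990) and *Ly6e* (0.987). These values are a description over mice that share groups and leukocyte content, and no test was made of them.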

How the data were processed

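Whole lacrimal gland RNA of 3 WT, 5 *Tlr7* KO and 3 *Ifnar1* KO mice, 1 library per animal, was sequenced by the authors on an Illumina HiSeq instrument. Gene-level estimated counts were made by the authors with salmon and tximport, and the main deposited table lists them rounded. Although the table is called normalized, totals and size factors differ between libraries, and its values were used as estimated counts. A second deposited table of whole-number counts for 39017 genes (HISAT2 2.1.0 and mm10, per the labels; counter not given in the sources used here) was an alternative, and 1 column of it, for a further *Ifnar1* KO mouse that matched no sample, was left out.

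Genes with at least 30 counts summed over the WT mice were tested in a separate fit for each pair of groups with edgeR 4.0.16 (TMM, quasi-likelihood test, R 4.3.3), with Benjamini-Hochberg adjustment over all genes tested and calls at 0.05. Ratios were tested with SciPy 1.17.1, with 0.5 added to each count. Alternatives were DESeq2 1.42.0, other scalings and filters, the second table, all 11 mice in 1 fit, a threshold of 0.01, a replicate block and each mouse left out. The text names the 10 members, up to 4 genes of each function list (most abundant or best known, others where said), the leukocyte and acinar markers, the targeted genes, and genes among the 5 most like the members, and 1 gene is counted but not reported by name here. Members and lists were chosen with earlier results of these data known. Totals of 20512315 to 28814250 counts limit counting error only.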

Additional observations from a re-analysis of the deposited data

Results flagged for a closer look

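Among the 5 *Tlr7* KO mice, the level of *H2-K1* in mouse 2 was 132.7 CPM, and its gap to the next mouse was 0.828 of the range of the group, above Dixon's critical value of 0.71 for 5 samples. *B2m* in the same mouse was at 502.1 CPM, with a gap of 0.738 of the range. Of 13 such checks 2 passed that value. The checks share the same mice and genes that follow each other closely, so they are not independent and no chance rate is set beside this count. The mouse had the highest level of all 10 members in its group and also the highest summed leukocyte marker level of its group, 104 CPM.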

How the results depend on the processing

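No member changed direction in any comparison under any alternative. Over the alternatives the adjusted p of a member ran from 9.31e-05 to 0.367 in *Tlr7* KO against WT, from 1.66e-07 to 0.16 in *Ifnar1* KO against WT and from 0.00132 to 0.705 between the knockouts. In *Tlr7* KO against WT, 2 members were called at an adjusted p under 0.01, and 3 to 10 with a mouse left out. In *Ifnar1* KO against WT, 0 were called under 0.01, and 0 to 10 with a mouse left out. Between the knockouts DESeq2 called 1 member, and 0 to 8 were called with a mouse left out. Mice numbered alike share only a number: the correlations of their deviations were between -0.400 and 0.030 for WT and *Tlr7* KO, between -0.440 and -0.158 for WT and *Ifnar1* KO, and between 0.064 and 0.340 for the knockouts. With the replicate number as a block, 0 members were called in *Tlr7* KO against WT, 0 in *Ifnar1* KO against WT and 10 between the knockouts. These fits held only mice 1 to 3 of each group, so *Tlr7* KO mice 4 and 5 were left out. The effect of the block was thus not separated from that of leaving them out. Of all 13937 genes tested, 17, 0 and 533 were called with this block in the same order. Scaling by library size alone moved the median of all genes to -0.54, -0.31 and -0.19 in the 3 comparisons. It moved the share of calls that are lower from 53.2%, 64.8% and 48.4% to 97.2%, 96.2% and 69.4%. With this scaling 10, 10 and 0 members were called, and 31.6%, 9.61% and 1.22% of all genes. With a mouse left out, 7 to 13 of the other heavy chain genes fell in *Tlr7* KO and 0 to 14 in *Ifnar1* KO, and 0 of the constitutive 20S genes fell while 0 to 3 and 0 to 1 rose. Of the loading genes 3 to 4 and 0 to 2 rose, and 0 to 2 fell in each knockout. Of the activators 1 to 2 and 0 to 2 fell, while 1 in each fit and 0 to 1 rose. Of the transcription factors 2 to 10 and 0 to 9 fell, of the interferon receptors 0 to 4 and 0 to 4, of the class II genes 7 in each fit and 0 to 7, and of the leukocyte markers 5 in each fit and 0 to 5. These list counts were run after the values had been seen. A fit that leaves out 1 mouse of 3 leaves a pair in that group, so its error rests on fewer mice. *Nlrc5* and *Psmb9* had under 20 counts in *Ifnar1* KO mouse 3.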
